A study of Homo sapiens with 12 samples.

Results

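Mitophagy depends on a kinase that marks damaged mitochondria and on receptors that tie them to the autophagosome. The transcripts of PINK1 and of 8 such receptors (BNIP3, BNIP3L, FUNDC1, OPTN, SQSTM1, CALCOCO2, NBR1 and TAX1BP1) were examined in Huh7 cells after knockdown of FAM111B. The 9 genes were taken by name from a table of 60666 genes, and no threshold on their values was used. All 9 were among the 14394 genes tested, that is, those with at least 1 TPM (transcript abundance per unit of length, as a part of each library's whole) in at least 3 libraries. Other genes of the pathway were examined beside them.

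Huh7 is an established human hepatocellular carcinoma (HCC) line. Control cells carried a negative control construct and shFAM111B cells a lentiviral short hairpin RNA against FAM111B, and transduced cells were selected with puromycin. Each group had 3 libraries. The labels do not say whether these came from separate cultures, so the p-values measure only the spread between these samples. Knockdown rested on 1 hairpin construct, no drug treatment is given for these libraries, and the 6 Hep3B libraries of the series were not analysed here. The study used the comparison to find the genes that change when FAM111B is silenced, with mitophagy among its questions.

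FAM111B, the targeted gene, had 7.84, 8.29 and 7.99 TPM in the control libraries and 0.96, 1.13 and 0.84 TPM in the shFAM111B libraries. Its log2 fold change was -2.20 ± 0.113 (SE, n = 3 per group), with an adjusted p of 6.09e-06 (limma, Benjamini-Hochberg). Libraries of 1 group correlated at 0.969 to 0.984 across genes, and libraries of different groups at 0.865 to 0.883. The summed TPM of the mitochondrial chromosome was 196100 to 201500 in control cells and 73240 to 78880 in shFAM111B cells. That of rRNA and other small structural RNA genes was 1645 to 4833 and 5007 to 68690. TPM are shares of a fixed total, and the median tested gene had a log2 fold change of -0.36, so each change below is also given relative to that median. Read counts are not part of TPM, so the sequencing depth is unknown. The 9 hepatocyte and HCC markers examined were all expressed. Their summed TPM was 29440 to 29490 in control cells and 47860 to 54640 in shFAM111B cells. Of them, 5 rose (AFP, APOA1, APOA2, TTR and GPC3) and 4 fell (ALB, SERPINA1, HNF4A and FGB). AFP rose most, from a mean of 7274 to 23060 TPM. Of 7 immune, stromal and endothelial markers, 2 passed the filter, and the summed TPM of the 7 was 18.1 to 22 in control cells and 25.6 to 27.26 in shFAM111B cells. PTPRC, CD3E, COL1A1, COL3A1 and VWF were below the filter. The part of these shifts in the results was not tested.

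In healthy mitochondria PINK1 is imported and cleaved. When import fails, it builds up on the outer membrane, phosphorylates ubiquitin and promotes the ubiquitination of outer membrane proteins. Adaptors such as OPTN, CALCOCO2 (also called NDP52), SQSTM1 (p62), NBR1 and TAX1BP1 bind the ubiquitin chains and, through a short motif, the ATG8 proteins on the growing autophagosome. BNIP3, BNIP3L (NIX) and FUNDC1 are outer membrane proteins that bind ATG8 proteins directly and need no ubiquitin, and they are best known from mitophagy under low oxygen. Transcript levels do not measure the amount of these proteins or the rate of mitophagy.

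Promoter sequence was read for the 7 genes with an entry in the RefSeq promoter table used (GRCh38.p14), over the 250 bases before each start and on both strands. BNIP3 is a textbook target of hypoxia-inducible factors, whose core site is ACGTG or GCGTG, and SQSTM1 of NFE2L2, whose element has the core TGACNNNGC. Only the ACGTG form of the first site was searched. FOXO proteins bind TGTTTAC. The letters ACGTG occurred before 18.5% of all 35116 RefSeq starts, TGACNNNGC before 10.9% and TGTTTAC before 2.98%. The sequences of BNIP3 and CALCOCO2 are shown because they alone among the 7 held any of the searched motifs. They cover the part of the window upstream of the annotated gene, on GRCh38, with the motif matches in capitals. BNIP3 is given at chr10:131982014-131982173 on the minus strand and CALCOCO2 at chr17:48830785-48830987 on the plus strand.
BNIP3: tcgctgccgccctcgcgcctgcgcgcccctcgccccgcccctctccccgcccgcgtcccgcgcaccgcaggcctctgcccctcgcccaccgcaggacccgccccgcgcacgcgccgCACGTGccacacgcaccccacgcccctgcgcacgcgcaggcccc
CALCOCO2: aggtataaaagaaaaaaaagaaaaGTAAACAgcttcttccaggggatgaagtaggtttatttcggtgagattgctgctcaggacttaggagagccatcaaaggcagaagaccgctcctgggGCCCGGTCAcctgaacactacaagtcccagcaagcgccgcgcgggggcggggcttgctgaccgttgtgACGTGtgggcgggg
The BNIP3 match began 134 bases before a start and is part of the palindrome CACGTG, the E-box bound by the TFE3 and TFEB family, which stood before 6.34% of starts. In CALCOCO2 the matches lay 61 (ACGTG), 129 (TGACNNNGC, on the other strand) and 226 bases (TGTTTAC, on the other strand) before a start. A match describes letters and is not a bound site, and nothing about binding was measured here.

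PINK1 was the least abundant of the 9 transcripts in control cells, and the only one of them called higher in shFAM111B cells. PINK1 (chr1:20633455-20651511, plus strand) had 9.95, 8.24 and 8.37 TPM in the control libraries and 10.44, 11.8 and 13.94 TPM in the shFAM111B libraries. The groups did not overlap, although the lowest shFAM111B library lay close to the highest control library. The mean went from 8.853 ± 0.952 to 12.06 ± 1.764 TPM (SD, n = 3), which was 1.36-fold higher. The log2 fold change was 0.40 ± 0.127 (SE; 95% interval 0.10 to 0.70), and 0.76 relative to the median gene, with an adjusted p of 0.0241 (limma, Benjamini-Hochberg). The direction held under the 6 other scalings and corrections of the table, which gave 0.29 to 1.07, and the call under 5 of them. The call was lost when any 1 of 4 libraries was left out: the adjusted p was 0.0761 without control replicate 2, 0.072 without control replicate 3, 0.0512 without shFAM111B replicate 2 and 0.0631 without shFAM111B replicate 3. It was also lost with the replicate number as a block (adjusted p = 0.0532, limma) and without the filter on TPM (adjusted p = 0.0529, limma). PINK1-AS, an antisense gene whose exons overlap those of PINK1, was at 0 to 0.77 TPM in control cells and 0.24 to 1.32 TPM in shFAM111B cells.

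**Figure D1:**
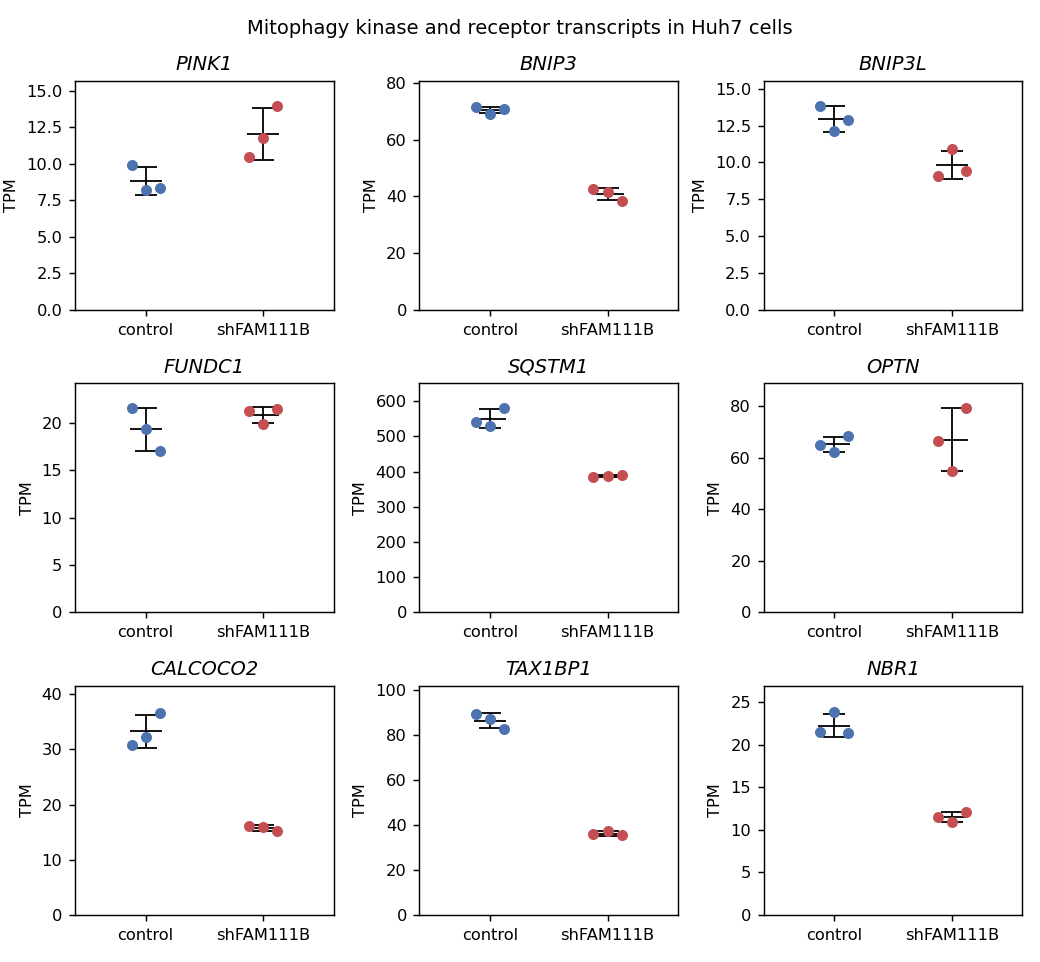
TPM of PINK1 and the 8 receptors in each of the 3 control and 3 shFAM111B libraries of Huh7 cells. Points are libraries, and error bars are the SD around the group mean (n = 3). The groups are apart for PINK1, BNIP3, BNIP3L, SQSTM1, CALCOCO2, NBR1 and TAX1BP1 and overlap for FUNDC1 and OPTN.

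Among the outer membrane receptors, BNIP3 fell to 57.9% of its control level and BNIP3L to 75.8%, the latter by about as much as the median gene and with a sign that turned under 5 other scalings and corrections, while FUNDC1 did not pass the test. BNIP3 (chr10:131966455-131982013, minus strand) had 71.43, 69.11 and 70.68 TPM in control cells and 42.44, 41.64 and 38.24 TPM in shFAM111B cells. Every control library lay far above every shFAM111B library. Its log2 fold change was -0.77 ± 0.0575 (SE; 95% interval -0.91 to -0.64), or -0.41 relative to the median gene (adjusted p = 2.41e-05, limma, Benjamini-Hochberg). BNIP3 was called lower under all 6 other scalings and corrections, at -0.90 to -0.24. The 44 annotated pseudogenes of BNIP3 summed to 2.82 to 3.21 TPM in control cells and 1.73 to 2.5 TPM in shFAM111B cells, small beside the gene itself.

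BNIP3L (chr8:26382898-26505636, plus strand), the closest relative of BNIP3 and the receptor that clears mitochondria from maturing red cells, had 13.86, 12.11 and 12.89 TPM in control cells. Its values in shFAM111B cells were 9.11, 10.92 and 9.44 TPM, all below the lowest control library. Its log2 fold change was -0.37 ± 0.098 (SE; adjusted p = 0.0119, limma, Benjamini-Hochberg), but relative to the median gene it was -0.01. The 6 other scalings and corrections ranged from -0.49 to 0.26, and 5 of them were positive. BNIP3L was called lower under 1 of them, higher under 1 and not called under the other 4. The higher call came with the length correction (0.26, adjusted p = 0.0478, limma), which removes a joint trend with transcript length and expression.

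FUNDC1 (chrX:44523639-44543001, minus strand) is a receptor whose binding to LC3 is controlled by phosphorylation. Its TPM were 21.6, 19.36 and 17.05 in control cells and 21.25, 19.9 and 21.46 in shFAM111B cells, and the groups overlapped. The log2 fold change was 0.11 ± 0.0954 (SE; 95% interval -0.12 to 0.34), with an adjusted p of 0.331 (limma, Benjamini-Hochberg). Relative to the median gene it was 0.47, and 4 of the 6 other scalings called it higher, at up to 0.64, whereas the protein-coding rescaling and the length correction gave -0.01 and -0.14.

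The makeup of the receptor pool within a library does not depend on scaling between libraries, but a trend with transcript length would remain in it. The longest transcript of FUNDC1 has 1196 bases and that of BNIP3 3066. Their log2 fold changes were 0.11 and -0.77 in the deposited TPM, and -0.14 and -0.41 with the joint trend of length and expression removed. The part of length in the shares below was not tested. BNIP3 made up 66.8%, 68.7% and 70.2% of the summed TPM of the 3 outer membrane receptors in control cells and 58.3%, 57.5% and 55.3% in shFAM111B cells. FUNDC1 went from 18.8% ± 1.68 to 29.2% ± 1.79 (SD, n = 3), and neither share overlapped between groups. The share of BNIP3L, 13%, 12% and 12.8% against 12.5%, 15.1% and 13.7%, did overlap. BNIP3 transcripts outnumbered those of FUNDC1 3.31, 3.57 and 4.15 times in the control libraries and 2, 2.09 and 1.78 times in the shFAM111B libraries. The ratio of BNIP3 to BNIP3L went from a mean of 5.45 to 4.17, again without overlap. With 3 libraries against 3, an exact two-sided permutation test of such a share cannot give a p below 0.1, so none is given.

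Of the 5 ubiquitin-binding adaptors, TAX1BP1, CALCOCO2, NBR1 and SQSTM1 fell in TPM, SQSTM1 with a sign that turned under 1 other scaling, and OPTN did not pass the test. TAX1BP1 (chr7:27739331-27844564, plus strand), an adaptor related to CALCOCO2, had the largest change of the 9 genes in the deposited TPM. With library medians subtracted or after the length correction, PINK1 changed more. TAX1BP1 had 89.44, 86.92 and 82.62 TPM in control cells and 35.75, 37.36 and 35.39 TPM in shFAM111B cells. The spread within each group was small against the gap between them, and the mean in shFAM111B cells was 41.9% of that in control cells. The log2 fold change was -1.23 ± 0.0541 (SE; 95% interval -1.36 to -1.10), or -0.87 relative to the median gene (adjusted p = 3.91e-06, limma, Benjamini-Hochberg). It was called lower under all 6 other scalings and corrections, at -1.36 to -0.70.

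CALCOCO2 (chr17:48830988-48866522, plus strand), one of the main adaptors of PINK1-dependent mitophagy, had 30.85, 32.28 and 36.64 TPM in control cells and 16.03, 15.99 and 15.21 TPM in shFAM111B cells. The groups were well apart, and the mean fell to 47.3% of control. This was a log2 fold change of -1.03 ± 0.0803 (SE; adjusted p = 2.99e-05, limma, Benjamini-Hochberg), or -0.67 relative to the median gene, and the 6 other scalings and corrections gave -1.16 to -0.42, all called lower.

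NBR1 (chr17:43170481-43211689, plus strand), which acts with SQSTM1 in the autophagy of ubiquitinated cargo, had 21.57, 23.85 and 21.41 TPM in control cells and 11.54, 10.97 and 12.17 TPM in shFAM111B cells. Here too no library crossed between the groups. On the log2 scale the change was -0.89 ± 0.0785 (SE; adjusted p = 5.22e-05, limma, Benjamini-Hochberg) and -0.53 relative to the median gene. NBR1 was called lower under 5 of the 6 other scalings and corrections. Removing the joint trend with transcript length and expression took it to -0.11 (adjusted p = 0.247, limma).

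SQSTM1 (chr5:179806398-179838078, plus strand), which gathers ubiquitinated cargo into clusters, was by far the most abundant of the 9 transcripts. It had 539.74, 530.05 and 581.26 TPM in control cells and 384.65, 387.17 and 391.59 TPM in shFAM111B cells, again with every control library higher. Its change was -0.50 ± 0.0468 on the log2 scale (SE; adjusted p = 6.76e-05, limma, Benjamini-Hochberg), but only -0.14 relative to the median gene. The 6 other scalings and corrections gave -0.85 to 0.03, and 3 of them called SQSTM1 lower. Exons of MGAT4B and of MRNIP, both on the opposite strand, overlap those of SQSTM1. MGAT4B was at 133 to 137.3 TPM in control and 134.9 to 143.2 TPM in shFAM111B cells, and MRNIP at 18.31 to 21.48 and 9.44 to 10.28 TPM.

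OPTN (chr10:13099449-13138308, plus strand), the other main adaptor of PINK1-dependent mitophagy, had 64.73, 62.33 and 68.21 TPM in control cells and 66.59, 54.8 and 79.4 TPM in shFAM111B cells. The shFAM111B libraries were spread on both sides of the control libraries. The log2 fold change was 0.02 ± 0.127 (SE; 95% interval -0.28 to 0.33), with an adjusted p of 0.873 (limma, Benjamini-Hochberg), and 0.39 relative to the median gene. The sign turned to -0.10 without shFAM111B replicate 3 and to -0.01 without control replicate 2. Among the 6 other scalings and corrections, 4 called OPTN higher, and the range was -0.10 to 0.56.

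The summed TPM of the 5 adaptors was 746.3, 735.4 and 790.1 in control cells and 514.6, 506.3 and 533.8 in shFAM111B cells. Within that sum OPTN rose from 8.59% ± 0.104 to 12.9% ± 2.03 (SD, n = 3) and TAX1BP1 went from 11.4% ± 0.838 to 6.99% ± 0.376, with no overlap of the libraries. CALCOCO2 went from 4.39% to 3.04% and NBR1 from 2.95% to 2.23%, also without overlap, while the share of SQSTM1, 72.7% ± 0.799 and 74.9% ± 1.56, overlapped between groups. TAX1BP1 thus stood at 1.38, 1.39 and 1.21 transcripts per OPTN transcript in control cells and 0.537, 0.682 and 0.446 in shFAM111B cells. The mean ratio of CALCOCO2 to OPTN was 0.511 in control cells and 0.241 in shFAM111B cells, and that of NBR1 to OPTN 0.343 and 0.176.

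**Figure D2:**
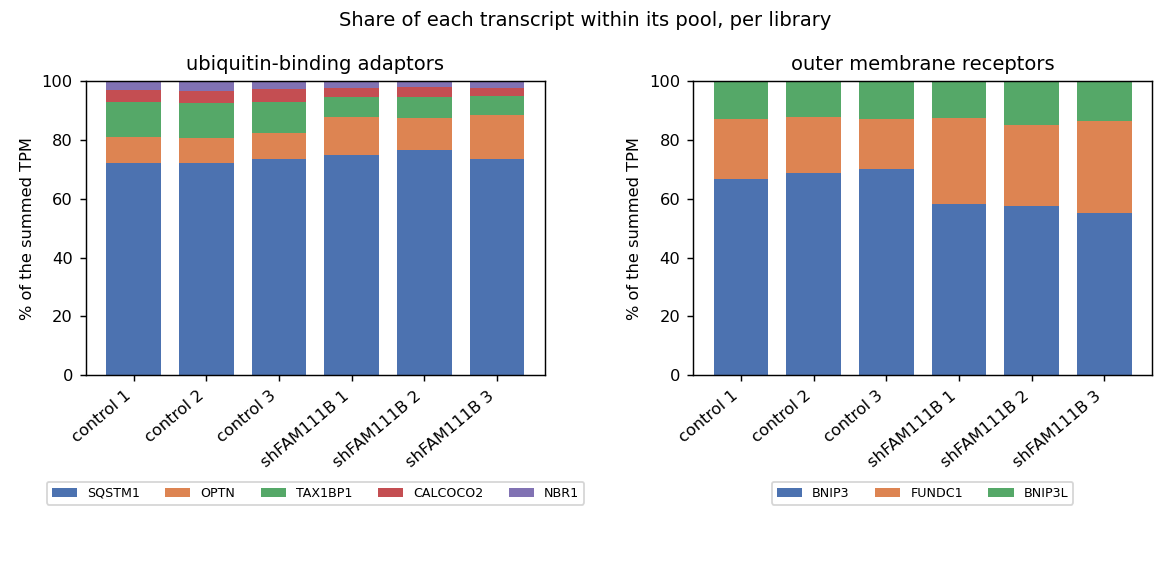
Share (%) of each transcript in the summed TPM of the 5 ubiquitin-binding adaptors (left) and of the 3 outer membrane receptors (right), with 1 bar per Huh7 library. OPTN takes 12.9% of the adaptor pool on average in shFAM111B cells against 8.59% in control cells, and FUNDC1 29.2% of the receptor pool against 18.8%.

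By mean TPM, the order in control cells was SQSTM1 (550), TAX1BP1 (86.3), BNIP3 (70.4), OPTN (65.1), CALCOCO2 (33.3), NBR1 (22.3), FUNDC1 (19.3), BNIP3L (13) and PINK1 (8.85). NBR1 and FUNDC1 were the only neighbours there whose ranges overlapped. In shFAM111B cells the order was SQSTM1 (388), OPTN (66.9), BNIP3 (40.8), TAX1BP1 (36.2), FUNDC1 (20.9), CALCOCO2 (15.7), PINK1 (12.1), NBR1 (11.6) and BNIP3L (9.82), and PINK1 and NBR1 overlapped. TAX1BP1 moved from above OPTN to below it, and PINK1 from the lowest place to a level above BNIP3L. The mean ratio of PINK1 to BNIP3 transcripts was 0.126 in control cells and 0.298 in shFAM111B cells.

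At an adjusted p under 0.05 (limma, Benjamini-Hochberg), 1 of the 9 genes was higher and 6 were lower, where 21.1% of all tested genes were higher and 50.9% lower. With the study's rule of at least a 2-fold change at P under 0.05, 0 were higher (limma; PINK1 passed P but not the fold) and 2 were lower (CALCOCO2 and TAX1BP1), against 6.82% and 23.7% of all tested genes. The groups did not overlap for 7 of the 9 genes and for 75.2% of all tested genes. The median log2 fold change of the 9 was -0.50, beside -0.36 for all tested genes. These shares are near the background, and the counts are no result particular to the 9 genes. After median-of-ratios scaling, which centres the ratios between libraries, PINK1, FUNDC1 and OPTN were called higher (34.7% of all genes) and BNIP3, CALCOCO2, NBR1 and TAX1BP1 lower (36.2%).

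**Figure D3:**
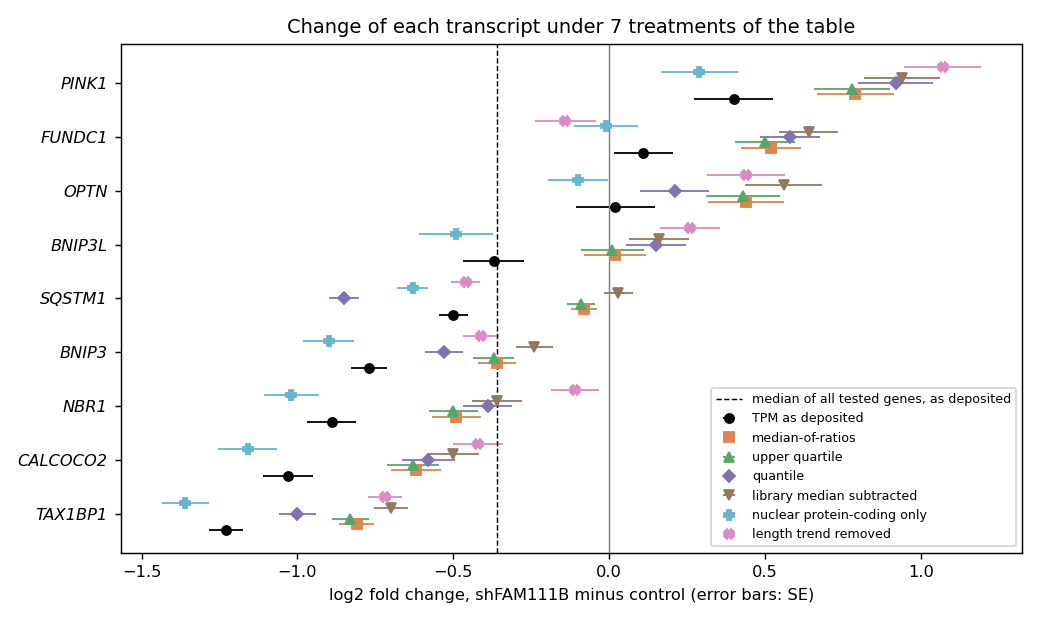
Log2 fold change (shFAM111B minus control, with SE) of the 9 transcripts from the deposited TPM and under 6 other scalings and corrections, on the log2(TPM + 1) scale; the dashed line is the median tested gene at -0.36. TAX1BP1, CALCOCO2, BNIP3 and NBR1 stay below 0 and PINK1 above 0 in all of them, whereas BNIP3L, SQSTM1, OPTN and FUNDC1 fall on both sides of 0.

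Changes across all genes moved with transcript length. The median log2 fold change was 0.17 for genes whose longest transcript had 1001 to 2000 bases, -0.31 for 2001 to 4000 bases and -0.78 for 4001 to 8000 bases. It was 0.43 for up to 1000 bases and -0.94 for over 8000 bases. FUNDC1 (1196 bases), NBR1 (4656) and TAX1BP1 (4020) lay between the lower and upper quartiles of their length class. BNIP3, BNIP3L, OPTN and SQSTM1 did so in the class of 2001 to 4000 bases, whose quartiles were -0.85 and 0.18, while CALCOCO2 (3682 bases) lay below it and PINK1 (3821 bases) above it. TAX1BP1 was only just past the limit of 4000 bases, and its -1.23 lay below the lower quartile of that shorter class. The classes therefore do not set TAX1BP1 apart from CALCOCO2, and the length correction gave -0.72 for TAX1BP1 and -0.42 for CALCOCO2. The part of transcript length alone in these changes was not tested, since the length correction also removes a trend with expression.

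The other genes of the pathway were examined in 8 groups by role, 64 genes in all, of which 62 passed the filter. At an adjusted p under 0.05 (limma, Benjamini-Hochberg), 9 rose, 43 fell and 10 were not called, with a median log2 fold change of -0.44. Over all tested genes 21.1% rose and 50.9% fell, with a median of -0.36, and the group counts below are to be read against those shares. After median-of-ratios scaling, 18 were higher and 26 lower, where 34.7% and 36.2% of all tested genes were, and 6 were called higher and 21 lower under every one of the 6 other scalings and corrections. TFEB is included in each of these counts of higher genes, although it passed the filter only through its shFAM111B libraries.

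Of 12 genes for the import and cleavage of PINK1, 3 rose, 5 fell and 4 were not called (median -0.10). TOMM7, a small subunit of the outer membrane translocase that helps to hold PINK1 there, went from 295.7 ± 16.15 to 505.4 ± 46.73 TPM (SD, n = 3). This change, 0.77 on the log2 scale, ranged from 0.05 to 1.30 under the 6 other scalings and corrections, and the gene was called higher under 5 of them. AFG3L2, a subunit of the m-AAA protease of the inner membrane, went from 90.32 to 36.55 TPM (-1.28). Exons of TUBB6, at 245.9 to 359.9 TPM, overlap those of AFG3L2 on the opposite strand. TOMM22, the receptor subunit of the translocase, and PARL, the rhomboid protease that cleaves PINK1, also rose by 0.49 and 0.48; both are named after their values were seen, as the remaining genes of the group that rose.

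The group of mitochondrial ubiquitin ligases and deubiquitinases also holds VCP, which is neither. All 12 of its genes reported here fell in TPM (median -0.74), where 50.9% of all tested genes fell. After median-of-ratios scaling 6 were lower, 1 higher and 5 not called, where 36.2% of all tested genes were lower and 34.7% higher. USP8, a deubiquitinase with roles in endosomal sorting and mitophagy, went from 27.88 ± 1.832 to 7.17 ± 0.5214 TPM (-1.82). It was called lower under all 6 other scalings and corrections, at -1.97 to -0.95. The longest transcript of USP8 has 19026 bases, in the length class with a median of -0.94. VCP, the segregase that pulls ubiquitinated proteins from membranes, changed least of the group in the deposited TPM, from 381.7 to 328.9 TPM (-0.21), and its sign turned under some scalings (-0.49 to 0.32), with a higher call after median-of-ratios scaling.

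Of 8 outer membrane proteins that are ubiquitinated in mitophagy, 6 fell, 1 rose and 1 was not called (median -0.48). MFN2, a mitofusin that also ties mitochondria to the endoplasmic reticulum, had 54.98, 53.6 and 53.98 TPM in control cells and 27.83, 27.12 and 27.57 TPM in shFAM111B cells. Its log2 fold change was -0.95 ± 0.0497 (SE; adjusted p = 6.34e-06, limma, Benjamini-Hochberg), and it was called lower under all 6 other scalings and corrections, at -1.08 to -0.33. MFN1, the other mitofusin, went from 16.57 ± 1.698 to 5.713 ± 0.5692 TPM (-1.39). CISD1, an iron-sulfur protein of the outer membrane, rose from 50.91 ± 3.902 to 122.4 ± 6.301 TPM (1.25), and remained higher under each of the other scalings and corrections.

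Of 8 further receptors, 7 fell and 1 rose (median -0.52). FKBP8, which recruits LC3 and escapes to the endoplasmic reticulum, rose from 103.4 ± 3.798 to 121.3 ± 3.148 TPM (0.23), and was called higher under 5 of the 6 other scalings and corrections. BCL2L13, a Bcl-2 family receptor regarded as the mammalian counterpart of yeast Atg32, went from 58.31 to 22.49 TPM (-1.34). Of 5 kinases that act on receptors, 3 fell, 1 rose and 1 was not called. The catalytic and regulatory subunits of casein kinase 2, which phosphorylates FUNDC1, moved apart: CSNK2A1 went from 114.3 to 42.93 TPM (-1.39) and CSNK2B from 187.5 to 281 TPM (0.58). Both kept their direction under every scaling and correction. The longest transcript of CSNK2A1 has 12912 bases and that of CSNK2B 1792, in length classes with medians of -0.94 and 0.17. Exons of GPANK1 and other genes overlap CSNK2B, and these were at most 26.84 TPM in any library.

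Among the ATG8 proteins, to which the receptors bind, 6 of 7 passed the filter, and 1 rose, 2 fell and 3 were not called (median -0.09). GABARAP had the largest rise of the 62 genes in the deposited TPM. It had 190.59, 219.77 and 212.07 TPM in control cells and 818.53, 744.45 and 872.04 TPM in shFAM111B cells, which was 3.91-fold higher. Its log2 fold change was 1.96 ± 0.0772 (SE; adjusted p = 3.08e-06, limma, Benjamini-Hochberg), with 1.65 to 2.50 under the other scalings and corrections. MAP1LC3B, which encodes the LC3 protein used as a marker of autophagosomes, went from 107.6 ± 2.762 to 81.41 ± 1.813 TPM (-0.40), close to the median gene, and its sign turned under some scalings (-0.52 to 0.13). Its reads may be shared with the near-identical MAP1LC3B2.

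Of 6 regulators of BNIP3 and BNIP3L, 5 fell and 1 rose (median -1.33), and the same counts were found after median-of-ratios scaling. Of all tested genes 50.9% fell, and 36.2% were lower after that scaling. The group mixes activators with genes that restrain BNIP3 or BNIP3L, so its counts give no direction for these receptors. HIF1A, the oxygen-regulated subunit of hypoxia-inducible factor 1, went from 143 ± 6.293 to 34.86 ± 4.211 TPM (-2.01) and was lower under every scaling and correction, at -2.14 to -1.48. TMEM11, a mitochondrial protein that limits BNIP3-dependent mitophagy, went from 49.25 to 55.83 TPM (0.18; adjusted p = 0.0261, limma, Benjamini-Hochberg), and was likewise called under 5 of the 6. Of 5 regulators of SQSTM1, 4 passed the filter, and 2 fell, 1 rose and 1 was not called. NFE2L2, the antioxidant response factor that SQSTM1 releases from KEAP1, went from 144.3 to 59.76 TPM (-1.26), and TFE3, a lysosomal gene regulator, from 73.76 to 35.82 TPM (-1.02). Exons of AGPS, at 64.99 to 73.07 TPM in control and 20.41 to 20.85 TPM in shFAM111B cells, overlap NFE2L2 on the opposite strand. TFEB, named after its values were seen as the gene that rose, passed the filter only through its shFAM111B libraries. BNIP3 and CALCOCO2, whose promoter sequences hold the letters ACGTG, fell in the same cells as HIF1A. The other form of the hypoxia core, GCGTG, was not searched in any of the promoters. Of the genes whose promoters hold none of the searched letters, TAX1BP1 (-1.23), NBR1 (-0.89) and SQSTM1 (-0.50) fell. OPTN (0.02) and FUNDC1 (0.11), whose searched promoters also hold none, were not called. Whether any of these letters is used was not tested.

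**Figure D4:**
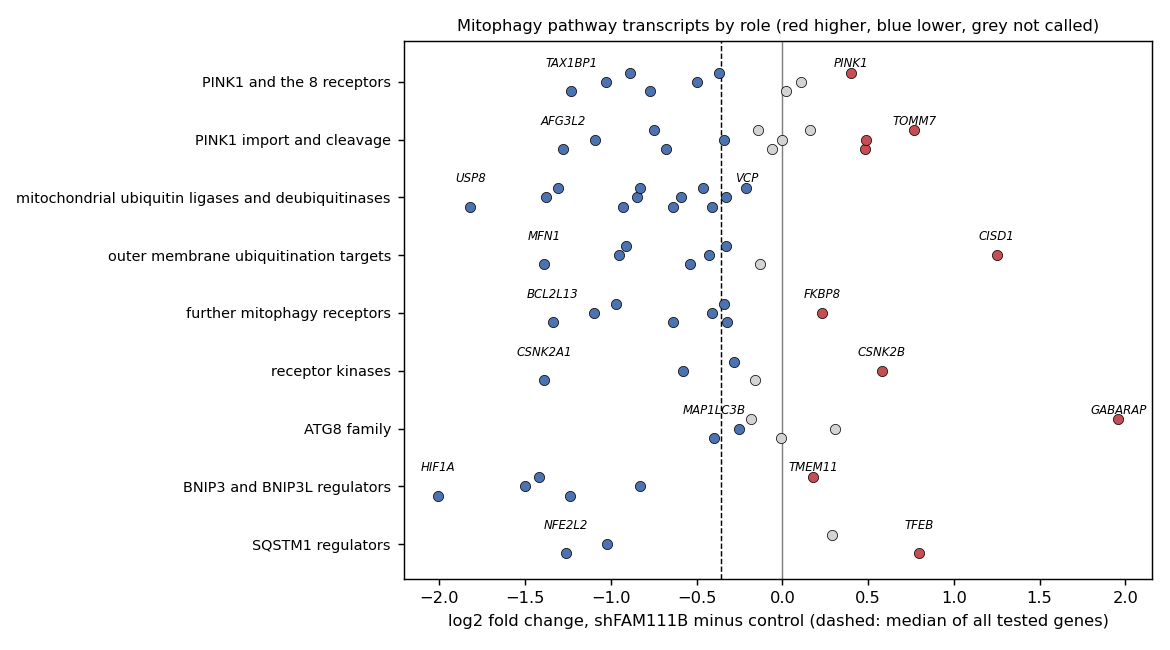
Log2 fold change (shFAM111B minus control) of PINK1 and the 8 receptors (top) and of 61 of the 62 tested pathway genes in 8 groups by role. Red points are called higher, blue points lower and grey points not called at an adjusted p under 0.05 (limma, Benjamini-Hochberg), and the dashed line is the median tested gene at -0.36. GABARAP (1.96) and CISD1 (1.25) lie farthest to the right and HIF1A (-2.01) farthest to the left.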

How the data were processed

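RNA from Huh7 cells was sequenced in 3 control and 3 shFAM111B libraries. The authors deposited 1 table with the TPM of each library and the mean TPM of each group. The deposited fold change (a ratio), log2 fold change and p-value columns hold the authors' own comparison and were not used. The submitters' processing notes name RSEM, DESeq2 and hg38 without versions. The aligner, annotation and counting strand are not given in the sources used here. The paper names a TruSeq kit and the labels a stranded poly(A) mRNA kit. TPM keep no sequencing depth, so no count test or counting error could be given, and the precision rests on the 3 libraries per group.

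The filter asked for 1 TPM or more in 3 or more libraries, and log2(TPM + 1) was compared with limma 3.58.1 (lmFit, and eBayes with a trend) in R 4.3.3, without covariates. Adjustment was by Benjamini-Hochberg over the 14394 tested genes. Fold changes on this scale understate those of low genes. Values ± are SD for TPM and shares and SE for log2 fold changes. The members and gene lists were chosen with earlier results of these data known. Besides the 9 genes, FAM111B and MFN2, the text names in each pathway group the genes with the largest and the smallest log2 fold change among those called, with groups that do not overlap and at least 5 TPM in 1 group; others are marked. The result of 1 pathway gene is not reported here, and it stays in the totals over all pathway genes. The 6 other scalings and corrections were median-of-ratios, upper-quartile and quantile scaling, subtraction of library medians, TPM over nuclear protein-coding genes, and removal of a loess trend (span 0.75) with transcript length and expression. Other alternatives were no filter, at least 1 TPM in every library, a pseudocount of 0.1, a replicate block and leaving out each library. No pair of libraries had more than 0.889% of tested genes with identical TPM. Positions and lengths were read from GENCODE v29 (GRCh38), where 58420 of 60666 table genes (96.3%) were found by identifier. Length is that of the longest transcript. The script was tested on simulated data. Python 3.11.15 with pandas 2.3.3 and matplotlib 3.10.9 made the promoter search and figures.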

Additional observations from a re-analysis of the deposited data

How the results depend on the processing

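BNIP3, CALCOCO2 and TAX1BP1 kept their direction and call under every alternative tried, with log2 fold changes of -0.80 to -0.73, -1.08 to -0.96 and -1.26 to -1.21 when 1 library was left out. NBR1 lost its call only with the trend of length and expression removed (-0.11) and ran from -0.92 to -0.84 without 1 library. PINK1 kept its direction, but lost its call without a filter (0.40, adjusted p = 0.0529), over protein-coding genes (0.29, adjusted p = 0.0551, both limma) and without 1 of 4 libraries (range 0.30 to 0.49). SQSTM1 (-0.53 to -0.46 without 1 library) lost its call under median-of-ratios (-0.08) and upper-quartile scaling (-0.09) and reversed with library medians subtracted (0.03). BNIP3L (-0.44 to -0.32 without 1 library) reversed under median-of-ratios (0.02), upper-quartile (0.01) and quantile scaling (0.15), subtracted medians (0.16) and length correction (0.26). FUNDC1 (0.03 to 0.19 without 1 library) became called under median-of-ratios (0.52), upper-quartile (0.50), quantile (0.58) and median subtraction (0.64), and reversed over protein-coding genes (-0.01) and with length correction (-0.14). OPTN (-0.10 to 0.16 without 1 library) became called under median-of-ratios (0.44), upper-quartile (0.43), median subtraction (0.56) and length correction (0.44), and reversed over protein-coding genes (-0.10). The cause of these shifts was not tested. Of the 9 genes, 3 were higher under median-of-ratios, upper-quartile, median subtraction and length correction, 2 under quantile scaling, and 0 without a filter or over protein-coding genes, against 1 as reported; leaving out 1 library gave 0 to 1 higher and 6 lower each time. The count lower by at least 2-fold, 2 as reported, was 1 under quantile scaling, 0 under median-of-ratios, upper-quartile, median subtraction and length correction, and 1 to 2 without 1 library (1 without control replicate 3). Length correction put 1 gene higher by at least 2-fold. Of the pathway genes, 9 higher and 43 lower as reported became 18 and 26 under median-of-ratios, 16 and 26 under upper-quartile scaling, 24 and 21 with median subtraction and 16 and 27 with length correction, and 8 to 9 and 40 to 42 without 1 library.

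With the replicate number as a block, 10220 genes were called against 10370. PINK1 alone of the 9 genes lost its call with the block (0.40, adjusted p = 0.0532, limma), leaving 0 higher. The labels tie no number to a shared culture or day, and same-numbered libraries deviated together at correlations of only 0.054, 0.0349 and 0.0908, although 5 of 6 libraries correlated best with their own number.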
